A study of Mus musculus with 18 samples.

Results

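Fgf5, Fgf8, Fgf15 and Fgf17, ligands of the fibroblast growth factor family, and Otx2, a homeodomain transcription factor of the epiblast and anterior brain, were followed across 5 kinds of mouse RNA. They were chosen by name: every non-control array probe whose gene name was Fgf4, Fgf5, Fgf8, Fgf15, Fgf17 or Otx2. This gave 6 of 41174 non-control probes, for 5 of the 6 names and 5 of 24966 genes tested. Fgf4 was not analysed here.

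The series compared RNA of induced pluripotent stem cells (iPSC) lacking Dnmt3a and Dnmt3b, the enzymes that place new DNA methylation, with RNA of control iPSC. Total RNA was labelled with Cy3 or Cy5 and 2 RNAs shared each of 18 Agilent arrays, which gave 36 channels. The Dnmt3ab-deficient iPSC were 3 lines, named 8, A6 and B2 and called clones here, with 6 channels. The same clones with some signs of differentiation, a kind of RNA of their own, had 12 channels and are called differentiating clones. The control iPSC were 4 lines, numbered 3 to 6, with 12 channels; beyond "control" the labels give them no genotype. V6.5 embryonic stem cells (ESC) and mouse embryonic fibroblasts (MEF), the references, were 1 RNA each, read on 3 arrays. All iPSC lines had been grown on fibroblast feeders, and before RNA isolation they were passaged on gelatin with no new feeders. The labels mark the channels of deficient and control iPSC as part of the published statistics, and those of MEF and of the differentiating clones as left out of them.

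The line was the replicate, and a level is 1 fitted log2 signal per line and kind of RNA. Arrays were read on 2 scan days. The 6 arrays of the first day held the deficient clones beside V6.5 ESC or MEF, and the 12 arrays of the second held the control lines beside the differentiating clones. Between deficient and control iPSC, and between the differentiating and the deficient state of a clone, scan day and group therefore cannot be told apart. Differentiating clones and control lines shared arrays, and so did deficient clones and each reference. A share of 69.69% to 92.55% of probes was well above background per channel, and no spot was saturated. Precision is set by how few lines and arrays there are.

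Fgf ligands act on receptor tyrosine kinases at the cell surface, mainly through the Ras-ERK cascade, which moves mouse pluripotent cells from the naive state of the early blastocyst towards the primed state of the epiblast after implantation. Fgf5 is the classic RNA marker of that epiblast. Fgf8 acts in the epiblast and primitive streak, and with Fgf17, a close relative, in the organizer between midbrain and hindbrain. Fgf15, the mouse counterpart of human FGF19, is made in the embryonic nervous system and is a hormone of the adult gut. Otx2 drives the exit from the naive state and later forms the head.

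Dnmt3a, a targeted DNA methyltransferase gene, was at 9.02 to 9.58 in deficient and 8.94 to 9.53 in differentiating clones, against 10.41 to 11.39 in control lines, and Dnmt3b at 12.32 to 13.49 and 13.16 to 13.34, against 12.41 to 14.01. The sources used here do not say whether these probes lie in the deleted parts, so these levels are no check of the labels.

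Every member was detected in every iPSC channel, that is, well above background in 6 of 6 deficient, 12 of 12 differentiating and 12 of 12 control channels. In MEF the probes of Fgf17 and Otx2 were well above background in 2 of 3 channels each. The file positions, on mouse build mm7, put the Fgf5 probe at chr5:97491844-97491903 on the plus strand and the Fgf15 probe at chr7:141325710-141325769 on the plus strand. Fgf17 was read at chr14:65283396-65283455 and Otx2 at chr14:43989807-43989866, both on the minus strand. Fgf8 had a probe at chr19:45633777-45633836, spotted 10 times per array and used for its values, and a second probe at chr19:45638514-45638573, both on the minus strand. The Otx2 probe was also spotted 10 times, and the other probes once. No exon annotation of that build was used.

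The start regions of Fgf5 and Otx2, the members found in the RefSeq table, are printed to show their CpG sites, the sequence on which the enzymes missing from the deficient clones act. They run from 250 bases before to 50 bases after the start of transcription, 5′ to 3′ on the gene's strand, from RefSeq on GRCm38.p6, with CpG in capitals. Of the 5 members 2 matched, and Fgf8, Fgf15 and Fgf17 are named only. Otx2 had 4 such windows, of which the one with the most CpG is shown.
Fgf5, chr5:98253934-98254233, plus strand: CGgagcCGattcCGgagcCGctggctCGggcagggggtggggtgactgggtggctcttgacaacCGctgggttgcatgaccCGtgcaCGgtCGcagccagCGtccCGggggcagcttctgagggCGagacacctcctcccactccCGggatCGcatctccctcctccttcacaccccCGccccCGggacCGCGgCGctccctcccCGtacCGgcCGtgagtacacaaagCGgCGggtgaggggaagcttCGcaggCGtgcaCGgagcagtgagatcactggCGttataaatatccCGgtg
Otx2, chr14:48665060-48665359, minus strand: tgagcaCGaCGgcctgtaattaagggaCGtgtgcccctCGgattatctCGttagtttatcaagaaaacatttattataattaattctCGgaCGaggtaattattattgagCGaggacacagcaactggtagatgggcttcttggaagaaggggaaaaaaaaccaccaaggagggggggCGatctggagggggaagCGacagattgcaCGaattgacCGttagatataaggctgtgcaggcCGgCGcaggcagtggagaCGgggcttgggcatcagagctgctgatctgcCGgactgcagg
The motif searched was CG, which reads the same on both strands. The Fgf5 window held 29, a number reached by 12.9% of 32851 RefSeq windows of that length, and the Otx2 window held 16, reached by 33%. The other Otx2 windows held 6, 8 and 11, and the median window 7. These are counts of letters; methylation was not measured in the files used here.

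One array stood apart before any gene was compared. After each slide's mean was removed, control line 5 on slide 3 correlated at 0.126 and 0.0187 with its own arrays on slides 4 and 5, against 0.751 between those. Arrays of lines 3, 4 and 6 correlated within a line at 0.523 to 0.973 (2487 genes, as a description). On that array the channel of differentiating clone 8 gave 8.48 for Fgf17, against 7.19 to 7.55 on its other 3 arrays. The channel of control line 5 gave 9.50 for Fgf5, against 11.21 and 11.72 on that line's other arrays, and 10.73 for Fgf8, against 12.20 and 12.16. For part of the results that rest on line 5 or on differentiating clone 8, the value without this array is given as well.

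**Figure D1:**
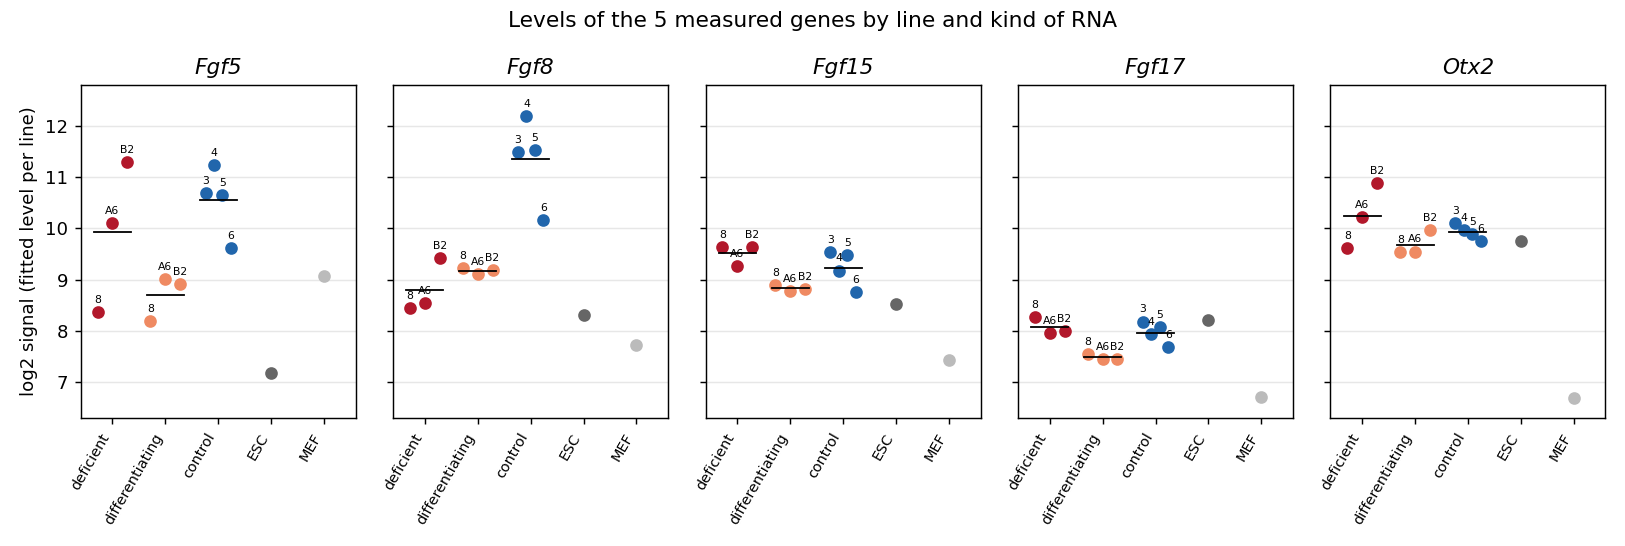
Fitted log2 signal per line (vertical axis) of the 5 measured genes in deficient clones, differentiating clones, control lines, V6.5 ESC and MEF (horizontal axis); points are lines, labelled by name, and bars are means of 3, 3 and 4 lines. Fgf8 was lower in all deficient and differentiating clones, at 8.45 to 9.41, than in all control lines, at 10.17 to 12.19, while Fgf5 spread from 8.37 to 11.30 over the deficient clones.

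Fgf8 was the only member whose level separated the deficient clones from the control lines. It had log2 signals of 8.45, 8.55 and 9.41 in deficient clones 8, A6 and B2, against 11.49, 12.19, 11.54 and 10.17 in control lines 3, 4, 5 and 6. All deficient clones lay below all control lines, and line 6 was the nearest to them. The means were 8.81 ± 0.53 in deficient and 11.35 ± 0.85 in control iPSC (SD, n = 3 and 4), a difference of -2.54 ± 0.48 (SE; 5.82-fold lower; limma adjusted p = 0.0053). In this comparison 48.2% of all genes passed the test, 32.7% as lower and 15.5% as higher, and 35.4% had every deficient clone below every control line. A larger fall than that of Fgf8 was seen for 0.024% of genes. With line values as plain channel means the adjusted p was 0.00791.

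The Fgf8 difference was of similar size within the arrays of the second scan day. The differentiating clones 8, A6 and B2 had 9.22, 9.11 and 9.19, all below the same 4 control lines, with a mean of 9.17 ± 0.06 against 11.35 ± 0.85 (SD, n = 3 and 4). The difference was -2.17 ± 0.44 (4.51-fold lower; adjusted p = 0.0475), in a comparison where 4.59% of all genes passed, 2.44% as lower, and 9.72% had every clone below every control line. Slide by slide, Fgf8 in the clone minus the mean of its control partners was -2.08 for clone 8, -2.23 for A6 and -2.15 for B2, and every one of the 12 arrays was negative, from -3.33 to -0.92. Both comparisons share the control lines, so they are not independent of each other.

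The Fgf8 call held without the odd array, at -2.62 (adjusted p = 0.00659) for deficient and -2.26 (adjusted p = 0.038) for differentiating clones. For the differentiating clones it sat at the threshold: leaving out control line 3, 4 or 5, or any 1 clone, gave differences of -1.89 to -2.20 with adjusted p of 0.0739 to 0.174, and leaving out line 6 gave -2.56 (adjusted p = 0.0065). For the deficient clones each such difference passed, at -2.26 to -2.93.

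Between the states of a clone Fgf8 had no common direction, with differentiating minus deficient at 0.77 in clone 8, 0.56 in A6 and -0.22 in B2. The mean of 0.37 ± 0.21 did not pass (adjusted p = 0.205), and without clone B2 it was 0.66 (adjusted p = 0.0304).

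The second Fgf8 probe ran the same way. It read 6.85, 6.83 and 6.94 in deficient clones 8, A6 and B2, and 7.07, 6.96 and 6.998 in the differentiating clones. In control lines 3 to 6 it read 7.54, 7.83, 7.65 and 7.13, so its groups did not overlap either. Its difference was -0.66 ± 0.16 for deficient (adjusted p = 0.0121) and -0.53 ± 0.16 for differentiating clones (adjusted p = 0.106). In MEF it was well above background in 0 of 3 channels.

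**Figure D2:**
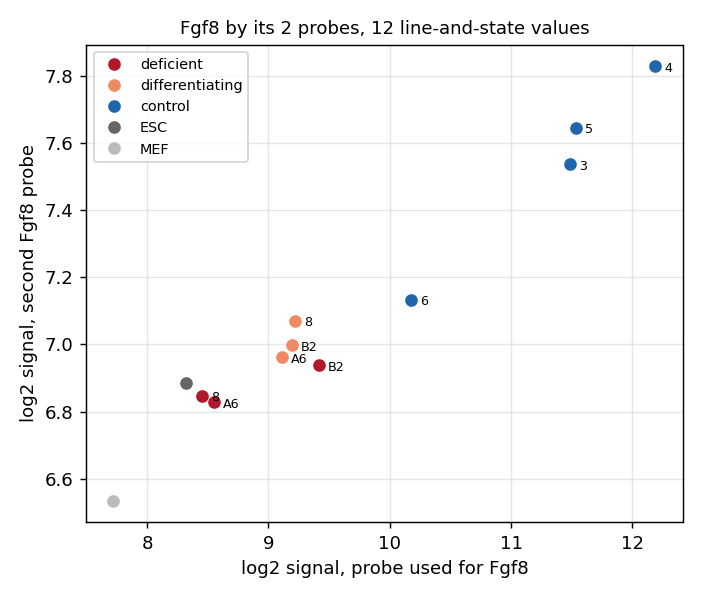
Log2 signal of the second Fgf8 probe (vertical axis) against the probe used for Fgf8 (horizontal axis) in 12 line-and-state values, coloured by kind of RNA. The 3 deficient and 3 differentiating clones lie at the low end of both probes, at 8.45 to 9.41 and 6.83 to 7.07, below the control lines at 10.17 to 12.19 and 7.13 to 7.83; the scales of the axes differ.

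Beside V6.5 ESC the deficient clones showed no Fgf8 difference past the test. The reference level was 8.32 in V6.5 ESC and 7.72 in MEF, both below every iPSC line. The deficient clones differed from V6.5 ESC by 0.52 ± 0.51 (adjusted p = 0.563) and from MEF by 1.05 ± 0.51 (adjusted p = 0.0873), where 14.3% and 58.2% of all genes passed, 5.8% and 28.4% as higher. These fits take their spread from all 18 arrays, on which each clone recurs with no block for it. On the 3 arrays of each reference alone, 1 per clone and with no dye term, the Fgf8 difference from MEF passed, at 0.87 (adjusted p = 0.0164). For the other members the calls against both references were the same as in the fit of all arrays. By array, clone B2 lay furthest above V6.5 ESC, at 1.15, and clones 8 and A6 at 0.17 and 0.23.

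Fgf5, the epiblast marker, differed more between the deficient clones than almost any other gene. It had 8.37, 10.11 and 11.30 in deficient clones 8, A6 and B2, against 10.69, 11.23, 10.66 and 9.63 in control lines 3 to 6. Clone 8 was below all control lines, clone A6 inside their range and clone B2 above all of them. The range over the deficient clones was 2.93 log2 units, and 0.02% of all genes had a wider one. Both dyes gave this order: in single channels clone 8 read 8.38 in Cy3 and 8.39 in Cy5, A6 read 9.996 and 10.17, and B2 read 11.20 and 11.43. The channels of deficient clone 8 were on slide 1 and those of A6 and B2 on slide 2. Clone 8 and slide therefore cannot be told apart in this order.

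With this spread the groups overlapped and Fgf5 did not pass between deficient and control iPSC, at 9.93 ± 1.48 against 10.55 ± 0.67 (SD, n = 3 and 4), a difference of -0.62 ± 0.70 (adjusted p = 0.493). Without clone 8 the difference was 0.15 and still short of the threshold.

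In the differentiating clones Fgf5 had 8.19, 9.02 and 8.91 (clones 8, A6 and B2). All lay below the control lines at 9.63 to 11.23, as was so for 9.72% of all genes. The difference from control iPSC was -1.84 ± 0.39 (3.59-fold lower), which just missed the threshold (adjusted p = 0.0525). It was -2.31 within slide 3, which holds clone 8, -1.53 within slide 4 (A6) and -1.65 within slide 5 (B2), and every array was negative. With 1 value per line and slide and slide as a block it passed, at -1.82 ± 0.48 (adjusted p = 0.0379), and it did so without the block as well (adjusted p = 0.0385). Those fits count each control line once per slide, so their p-values are too small. Without the odd array it was -1.96 (adjusted p = 0.0739), and without control line 6 it was -2.15 (adjusted p = 0.0105).

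For Fgf5, differentiating minus deficient was -0.18 in clone 8, -1.09 in A6 and -2.39 in B2, and whether the clones differ was not tested. All 3 were negative, with a mean of -1.22 ± 0.45 that did not pass (adjusted p = 0.0799), where 54.3% of all genes passed, 19% as lower. With line values as plain channel means, and without the odd array, it passed (-1.21 each; adjusted p = 0.0421 and 0.0424).

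V6.5 ESC had the lowest Fgf5 level, 7.18, with 7.17 to 7.21 on its 3 arrays, and MEF had 9.07. The deficient clones exceeded V6.5 ESC on each shared array, by 1.30 for clone 8, 2.92 for A6 and 4.09 for B2. The fitted difference was 2.77 ± 0.69 (6.81-fold higher; adjusted p = 0.0131), and 0.036% of genes had a larger rise. This call ended without the array of A6 (2.69; adjusted p = 0.0679) or of B2 (2.11; adjusted p = 0.121). It also ended with a background correction that kept spots of very high local background when the correction was fitted, at 1.17 (adjusted p = 0.365). Against MEF the clones were at -0.81 (clone 8), 1.06 (A6) and 2.26 (B2), and the difference of 0.84 ± 0.69 did not pass (adjusted p = 0.323).

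**Figure D3:**
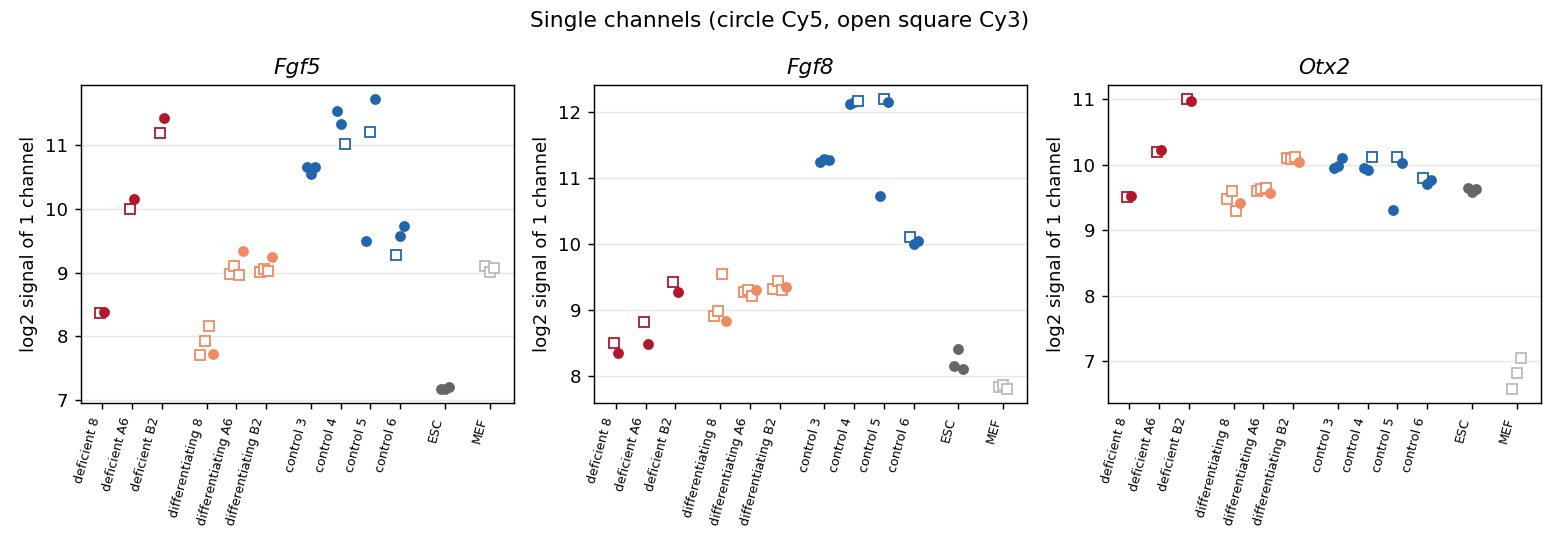
Log2 signal of single channels (vertical axis) of Fgf5, Fgf8 and Otx2 by line (horizontal axis); filled circles are Cy5 and open squares Cy3. Both dyes put the deficient clones in the order 8, A6, B2 for Fgf5 and Otx2, and control line 5 has 1 low channel, at 9.50 for Fgf5 and 10.73 for Fgf8, from the array that stood apart.

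Fgf17, the close relative of Fgf8, overlapped between deficient and control iPSC. It had 8.27, 7.95 and 8.00 in deficient clones 8, A6 and B2, against 8.18, 7.93, 8.07 and 7.69 in control lines 3 to 6 (0.10 ± 0.13; adjusted p = 0.544). In the differentiating clones it had 7.54, 7.46 and 7.45, below every control line, as was so for 9.72% of all genes. Each was also below the same clone in the deficient state. Against control iPSC the difference was -0.48 ± 0.11 (adjusted p = 0.063), and with slide as a block it was -0.52 ± 0.14 (adjusted p = 0.0416; 0.0559 without the block on the same values). Against the deficient state Fgf17 fell by 0.73 in clone 8, by 0.50 in A6 and by 0.55 in B2, a mean of -0.59 ± 0.06 that passed (adjusted p = 0.00465; 0.0116 with channel means). Without the odd array this was -0.67 (adjusted p = 0.00686). In the main fit 54.3% of all genes passed between the states, 19% as lower. Against control iPSC and without that array, Fgf17 was at 0.16 in deficient and -0.51 in differentiating clones (adjusted p = 0.383 and 0.0514). Fgf17 was at 8.21 in V6.5 ESC, with the deficient clones at -0.09 ± 0.14 from it (adjusted p = 0.729), and at 6.71 in MEF, which the clones exceeded by 1.33 ± 0.14 (adjusted p = 2.28e-07).

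Fgf15 also fell between the states of a clone. It had 9.63, 9.27 and 9.64 in deficient clones 8, A6 and B2, and 8.90, 8.78 and 8.81 in the same clones when differentiating. The fall was 0.73, 0.49 and 0.83 log2 units by clone, a mean of -0.68 ± 0.08 (1.6-fold lower; adjusted p = 0.00525; 0.0127 with channel means), and without the odd array -0.72 (adjusted p = 0.00549). Between the states 54.3% of all genes passed, 19% as lower. The control lines 3 to 6, at 9.54, 9.18, 9.48 and 8.76, overlapped both states. Neither state differed from them past the test: the deficient clones stood at 0.28 ± 0.20 (adjusted p = 0.296) and the differentiating ones at -0.41 ± 0.19 (adjusted p = 0.276). Without control line 6 the second of these passed, at -0.57 (adjusted p = 0.0212). Without the odd array they were 0.30 and -0.42 (adjusted p = 0.286 and 0.263).

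Fgf15 also separated the deficient clones from both references. It was at 8.52 in V6.5 ESC and 7.43 in MEF. The clones exceeded V6.5 ESC by 1.18 (clone 8), 0.81 (A6) and 1.18 (B2), a difference of 1.06 ± 0.19 (adjusted p = 0.00161), and MEF by 2.02 ± 0.19 (adjusted p = 8.14e-08). Keeping the spots of very high local background ended the call against V6.5 ESC (0.61; adjusted p = 0.108).

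Otx2 followed the order of Fgf5 over the deficient clones. It had 9.62, 10.22 and 10.88 in clones 8, A6 and B2, against 10.104, 9.97, 9.89 and 9.76 in control lines 3 to 6. Clone 8 was below all control lines and A6 and B2 above all of them. The clone range of 1.27 was exceeded by 0.713% of genes, while the control lines spanned 0.345. The difference was 0.31 ± 0.28 (adjusted p = 0.388). It was 0.62 (adjusted p = 0.0461) without clone 8 and -0.01 (adjusted p = 0.965) without B2.

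In the differentiating clones Otx2 had 9.54, 9.55 and 9.96 (8, A6 and B2), overlapping the control lines (-0.25 ± 0.13; adjusted p = 0.342). It was lower than in the deficient state by 0.07 in clone 8, 0.67 in A6 and 0.92 in B2, a mean of -0.55 ± 0.18 that did not pass (adjusted p = 0.0583). Without clone 8 that mean was -0.80 (adjusted p = 0.00333), and without the odd array -0.52 (adjusted p = 0.0507). V6.5 ESC had 9.76, from which the deficient clones differed by 0.50 ± 0.25 (adjusted p = 0.211; 0.88 with adjusted p = 0.0297 without clone 8). MEF had 6.68, and the clones exceeded it by 3.53 ± 0.25 (11.6-fold; adjusted p = 2.41e-09), a rise exceeded by 0.881% of genes. With Agilent processed signals the difference from MEF was 5.06 for Otx2 and 2.43 for Fgf17. Both probes are dim in MEF, and the size of these folds depends on how the signal is processed.

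**Figure D4:**
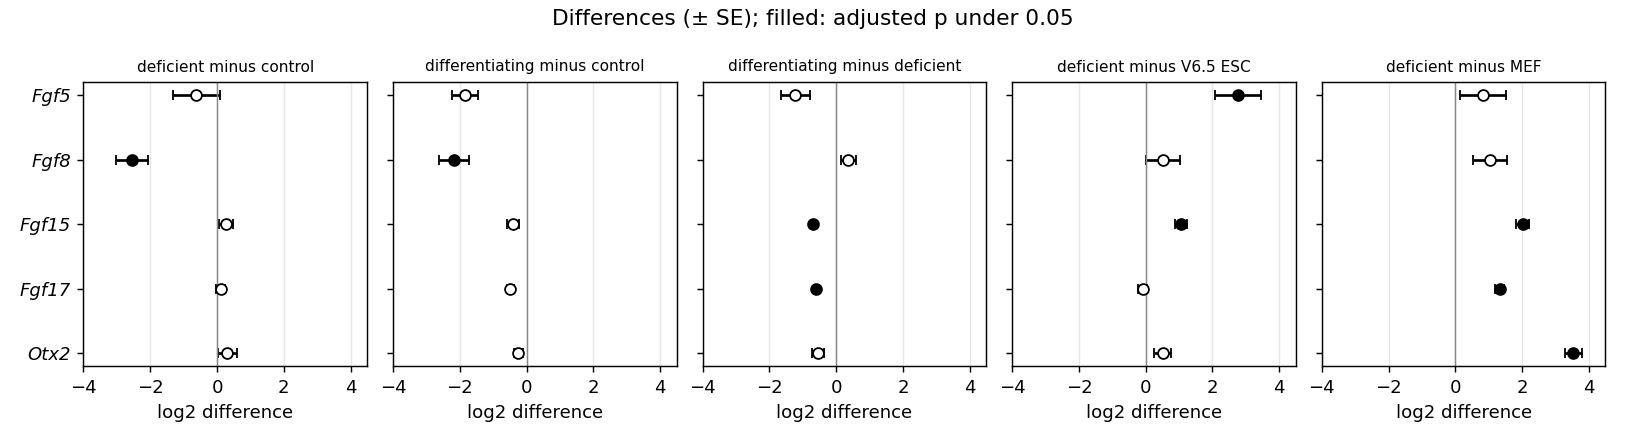
Log2 difference ± SE (horizontal axis) of the 5 measured genes (rows) in 5 comparisons; filled points passed an adjusted p of 0.05 over all genes. Fgf8 is the filled point in both comparisons with control iPSC, at -2.54 and -2.17, Fgf15 and Fgf17 between the states of the clones, at -0.68 and -0.59, Fgf5 and Fgf15 against V6.5 ESC, at 2.77 and 1.06, and Fgf15, Fgf17 and Otx2 against MEF, at 2.02, 1.33 and 3.53.

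Of the 5 members, limma called 1 between deficient and control iPSC, 1 between differentiating clones and control iPSC and 2 between the states. It called 2 between deficient clones and V6.5 ESC and 3 between deficient clones and MEF. The shares of all genes called were 48.2%, 4.59%, 54.3%, 14.3% and 58.2% in the same order. With channel means the counts were 1 between deficient and control iPSC, where 30.6% of genes passed, 0 for the differentiating clones (1.79%) and 3 between the states (32.5%). That 0 leaves Fgf8 at an adjusted p of 0.0618 and an unadjusted p of 0.00154.

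The order of the levels differed by gene. For Fgf8 control iPSC came highest, then differentiating clones, deficient clones, V6.5 ESC and MEF, and the ranges of the differentiating and the deficient clones overlapped. For Fgf5 control iPSC was followed by deficient clones, MEF, differentiating clones and V6.5 ESC, and only V6.5 ESC stood clear of its neighbour. For Fgf15 and Otx2 the deficient clones came highest and MEF lowest. For Fgf17 V6.5 ESC came highest, within the range of the deficient clones, and MEF lowest.

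Control line 6 was the lowest control line for 5 of 5 members, as it was for 35.7% of all genes. Line 6 minus the mean of the other control lines was -1.57 for Fgf8, -1.23 for Fgf5, -0.64 for Fgf15, -0.37 for Fgf17 and -0.23 for Otx2. The median over all genes of this quantity was -0.00112.

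The clone order 8, A6, B2 from low to high was shared by Fgf5, Fgf8 and Otx2, 3 of 5 members, against 19.4% of all genes. Of 39 measured primed and formative epiblast genes other than the members, 15 (38.5%) had it. The opposite order was held by 13 of 21 naive pluripotency genes (61.9%), against 21.2% of all genes. Among 25 markers of primitive and visceral endoderm, 12 differed by over 1 log2 unit between the clones (48%, against 1.5% of all genes). Cubn, an endocytic receptor of visceral endoderm, read 12.98 in clone 8, 8.59 in A6 and 8.77 in B2, and Gata6, a transcription factor of primitive endoderm, read 11.00, 9.01 and 8.57. These examples were chosen after their values were seen. Deficient clone 8 was read on another slide than A6 and B2, so clone 8 and slide cannot be told apart here.

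**Figure D5:**
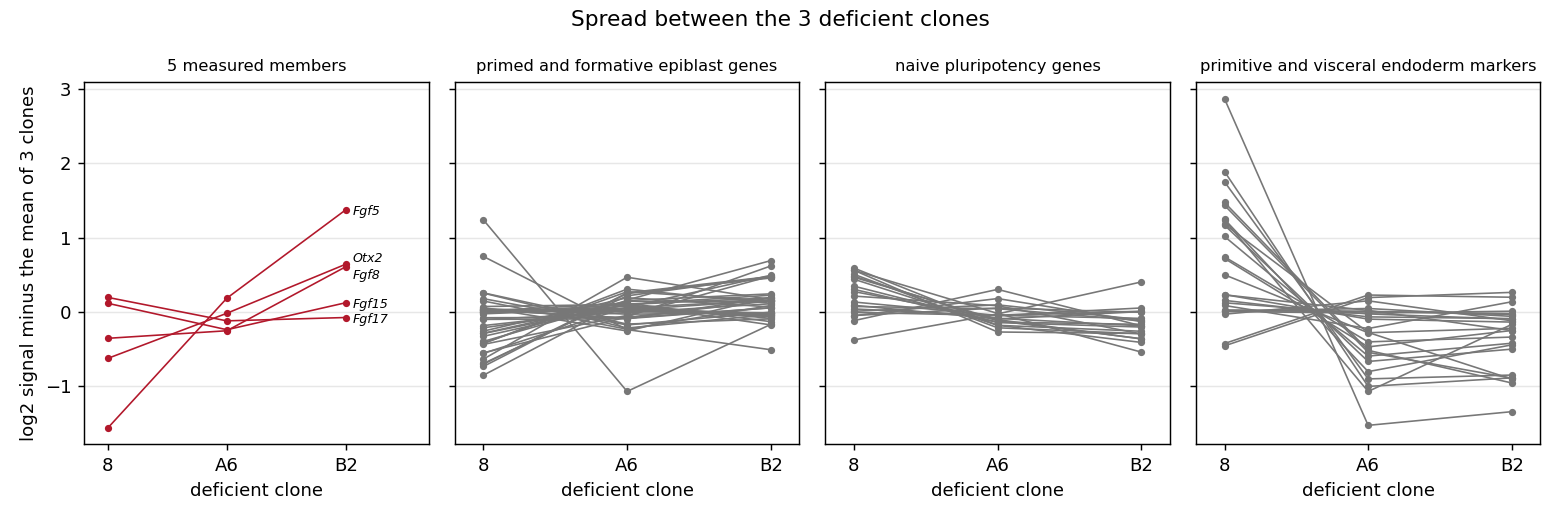
Log2 signal minus the mean of the 3 deficient clones (vertical axis) in clones 8, A6 and B2 (horizontal axis) for the 5 members and for 3 gene lists; each line is 1 gene. Fgf5, Otx2 and Fgf8 end highest in B2, and 12 of 25 endoderm markers span over 1 log2 unit, many with their highest value in clone 8.

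Markers of fibroblasts, endoderm and pluripotent cells moved with the groups. In these bulk samples, fewer cells of a type and less RNA per cell cannot be told apart. The summed signal of 9 fibroblast and feeder markers was 14.33 to 14.41 on the log2 scale in deficient clones, 14.37 to 15.04 in differentiating clones and 15.14 to 16.21 in control lines, with 14.36 in V6.5 ESC and 19.66 in MEF. All 9 were lower in deficient than in control iPSC past the test, as were 32.7% of all genes. In MEF the levels of Fgf8 (7.72), Fgf15 (7.43), Fgf17 (6.71) and Otx2 (6.68) were below every iPSC level, and that of Fgf5 (9.07) was not. The summed signal of 8 endoderm markers was 11.10 to 13.77 in deficient, 13.64 to 14.56 in differentiating and 10.93 to 12.16 in control iPSC, and between the states 6 of the 8 rose. There 54.3% of all genes passed, 65% of these as higher. In the same order of groups, 7 pluripotency markers summed to 16.77 to 16.90, 16.01 to 16.22 and 16.09 to 16.39, with 17.39 in V6.5 ESC and 12.18 in MEF. For 6 neural and isthmus markers the sums were 11.97 to 12.28, 11.97 to 12.14 and 12.30 to 12.34. Of these 6, 1 was higher and 3 lower in deficient against control iPSC, and 2 were higher and 1 lower between the states. The part of these shifts in the values of the 5 members was not tested.

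The rest of the pathway was read from gene lists that leave the members out, beside shares of all genes of 15.5% higher and 32.7% lower in deficient against control iPSC, and 2.15% higher and 2.44% lower in differentiating clones against control iPSC. Of 16 other Fgf ligands, 0 were higher and 8 lower in the deficient clones (median -0.21, against -0.08 for all genes), and 0 were higher and 1 lower in the differentiating ones. Fgf23, a hormone of phosphate balance, fell by 0.55 (adjusted p = 0.000112), and Fgf7, a growth factor made by fibroblasts, by 0.62 (adjusted p = 0.00742). Fgf23 read 7.23 in deficient clones, 7.23 in V6.5 ESC and 7.39 in MEF on the first scan day. On the second it read 7.76 in differentiating clones and 7.78 in control lines. Fgf7, which is also on the fibroblast list, was the ligand lower in the differentiating clones, by 0.64 (adjusted p = 0.0469; 0.0528 with channel means).

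Of 16 receptors, co-receptors and heparan sulfate genes, 5 were higher and 1 lower in deficient iPSC. Hs2st1, a heparan sulfate sulfotransferase, rose by 0.38 (adjusted p = 0.0346) and Fgfrl1, a receptor-like protein without a kinase domain, by 0.35 (adjusted p = 0.0124), while Kl, the co-receptor of Fgf23, fell by 0.30 (adjusted p = 0.000649). Kl read 7.01 in deficient clones, 6.98 in V6.5 ESC and 6.92 in MEF on the first scan day. On the second it read 7.25 in differentiating clones and 7.31 in control lines. With channel means 1 of the 16 genes was higher and 1 lower, and Fgfrl1 did not pass (adjusted p = 0.0699). With slide as a random block, or without clone A6 or B2, 2 were higher and 1 lower. Against the same control lines, 4 were higher and 0 lower in the differentiating clones. Klb, the co-receptor that Fgf15 uses in liver, rose by 1.54 (adjusted p = 0.0375) and Sdc4, a cell-surface proteoglycan, by 1.14 (adjusted p = 0.0416). Neither passed with channel means (adjusted p = 0.0708 and 0.058).

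Of 17 adaptors and kinases of the ERK cascade, 3 were higher and 3 lower in deficient iPSC. The phosphatase gene Ptpn11 fell by 0.33 (adjusted p = 0.00183). Map2k2, which encodes a kinase that activates ERK, rose by 0.46 (adjusted p = 0.00174) and the adaptor gene Grb2 by 0.29 (adjusted p = 0.0301). For the differentiating clones 0 were higher and 1, Map2k2, lower, by 0.31 (adjusted p = 0.0404). With channel means Grb2 (adjusted p = 0.0689) and, in the differentiating clones, Map2k2 (adjusted p = 0.122) did not pass.

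Of 21 ERK targets and feedback inhibitors, 2 were higher and 7 lower in deficient iPSC (median -0.47). Dusp4, a phosphatase that switches ERK off, fell by 1.63 (adjusted p = 0.0017) and Ier3, an early response gene, by 1.00 (adjusted p = 0.0183). Dusp4 read 9.94 in deficient clones, 10.095 in V6.5 ESC and 10.93 in MEF on the first scan day. On the second it read 11.475 in differentiating clones and 11.565 in control lines. Etv4, a transcription factor induced by Fgf signals, rose by 0.80 (adjusted p = 0.0094) and Spred2, an inhibitor of Ras, by 0.50 (adjusted p = 0.00927). Differentiating clones had 0 higher and 2 lower, Dusp14 by 0.86 (adjusted p = 0.0376) and Myc by 0.83 (adjusted p = 0.0463; 0.0686 with channel means).

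Of the 39 other primed and formative epiblast genes, 7 were higher and 12 lower in deficient iPSC (median -0.29). Krt8 and Krt18, keratins of simple epithelia, differed by -3.17 (adjusted p = 0.000169) and -2.68 (adjusted p = 0.00111). Dnmt3l, the cofactor of the missing enzymes, rose by 1.53 (adjusted p = 0.00133), and Zic2, a zinc finger factor of the epiblast and neural plate, by 1.06 (adjusted p = 0.000351). Zic2 read 9.57 in deficient clones, 9.50 in V6.5 ESC and 7.95 in MEF on the first scan day. On the second it read 8.31 in differentiating clones and 8.51 in control lines. When the clones were differentiating, 3 were higher and 5 lower. Sp5, a target of Wnt signals, fell by 2.19 (adjusted p = 0.0327) and Dnmt3a fell by 1.76 (adjusted p = 0.033), while Foxa2, a factor of endoderm and streak, rose by 2.79 (adjusted p = 0.0361) and Dnmt3l by 1.15 (adjusted p = 0.0468; 0.124 with channel means). Dnmt3a, a gene targeted in the clones and so not independent of the genotype, is counted among the lower genes of this list against control iPSC, in both states, and against V6.5 ESC. Against V6.5 ESC, 9 of these genes were higher and 3 lower in the deficient clones (median 0.22, against 0.01 for all genes), where 5.8% of all genes were higher and 8.49% lower.

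Of 21 naive pluripotency genes, 4 were higher and 1 lower in deficient iPSC. Pecam1, a surface protein of the inner cell mass, rose by 1.20 (adjusted p = 0.000593), and Nanog, a core factor of the naive state, rose by 1.04 (adjusted p = 0.00721), while Stat3, which carries the LIF signal, fell by 0.37 (adjusted p = 0.00509). Differentiating clones had 2 higher and 0 lower, Socs3, a feedback inhibitor of that signal, by 0.64 (adjusted p = 0.0456) and Stat3 by 0.49 (adjusted p = 0.0328). Of 12 core pluripotency factors, which share Nanog and Fbxo15 with that list, 6 were higher in deficient iPSC, with Dppa4 at 0.89 (adjusted p = 0.000941), and 0 were called in the differentiating clones.

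Of 17 anterior neural and isthmus genes, where Otx2, Fgf8 and Fgf17 are also active, 2 were higher and 8 lower in deficient iPSC (2 and 5 with channel means, 5 and 5 without normalization between arrays). Pax6 and Lhx2, transcription factors of the forebrain and eye, rose by 1.08 (adjusted p = 0.00672) and 0.82 (adjusted p = 0.00252). Nes, an intermediate filament of neural stem cells, fell by 0.87 (adjusted p = 0.00055), and Wnt1, an isthmus ligand, by 0.49 (adjusted p = 0.000134). Wnt1 read 8.145 in deficient clones, 8.146 in V6.5 ESC and 8.22 in MEF on the first scan day. On the second it read 8.65 in differentiating clones and 8.64 in control lines. In the differentiating clones Lhx2 was higher by 0.94 (adjusted p = 0.0409) and Nes lower by 0.74 (adjusted p = 0.0328), 1 gene each way.

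Of 25 primitive and visceral endoderm markers, 2 were higher and 5 lower in deficient iPSC, and 9 higher and 0 lower in differentiating clones (median 1.34, against 0.00196 for all genes). Foxa2 is counted both among these 9 and among the primed and formative genes, and Cer1 is on both lists. With channel means the endoderm markers had 2 higher and 2 lower in deficient iPSC, and 5 and 0 in differentiating clones. Rhox5, a homeobox gene of extraembryonic tissue, was higher by 2.04 in deficient iPSC (adjusted p = 0.00554). Cubn, an endocytic receptor of visceral endoderm, was higher by 4.00 in differentiating clones (adjusted p = 0.0361). Of 30 fibroblast and feeder markers, 3 were higher and 18 lower in deficient iPSC, and 0 higher and 7 lower in differentiating clones. With channel means the fibroblast counts were 4 and 15 in deficient iPSC, and 0 and 3 in differentiating clones. S100a4, a calcium-binding protein of fibroblasts, differed by -2.34 and Twist1, a mesenchymal transcription factor, by 0.79 in deficient iPSC (adjusted p = 0.00036 and 0.000649).

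These counts between deficient and control iPSC depended on the scaling. Without normalization between arrays, ERK targets and inhibitors had 4 higher and 4 lower, primed and formative genes 13 and 9, naive genes 13 and 0, adaptors and kinases 8 and 1, and receptors, co-receptors and heparan sulfate genes 9 and 1. The median of the adaptors and kinases was then 0.24, against -0.13 with it. The other Fgf ligands had 0 higher and 7 lower, and the fibroblast markers 6 and 13 of 30. Counts for the differentiating clones moved without the odd array, where 2443 genes passed, against 1145. Receptors, co-receptors and heparan sulfate genes then had 5 higher and 3 lower, and ERK targets and inhibitors 2 and 4. Primed and formative genes had 3 and 8, fibroblast markers 0 and 14, and adaptors and kinases 0 and 2. The other lists kept their counts.

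Across the 12 line-and-state values, which share arrays and 1 fit, the genes most like Fgf8 in level were Ppp4r4, Lypd6b and Fndc3c1 (Pearson's r 0.98 to 0.99). For Fgf5 they were Chordc1, Mrpl50 and Gbp3 (r 0.88 to 0.90), for Fgf15 they included Exosc7 and E2f8 (r 0.94), for Fgf17 they were Cct3, Gart and Cdca7l (r 0.96) and for Otx2 Eme1, Zfp72 and Ints9 (r 0.97 to 0.98). MEF weighs in these values: without it the highest r of the Otx2 group was 0.85, against 0.99 for the Fgf8 group. Among the members themselves Fgf5 and Fgf8 had an r of 0.69, and 0.71 without MEF, while Fgf8 and Fgf17 had 0.39, and 0.12 without MEF.

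The authors' deposited table, a log2 ratio per probe and array, put Fgf8 in differentiating clones below its control partner on 12 of 12 arrays, from -3.21 to -0.77. The same table put Fgf5 below it on 12 of 12, from -3.77 to -0.63, and above V6.5 ESC by 1.26, 2.86 and 4.07 in deficient clones 8, A6 and B2.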

How the data were processed

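The authors' scanner files, 1 per array, hold spot intensity for Cy3 and Cy5, read with Agilent Feature Extraction 10.1.1.1 per the file headers. The authors' deposited value table holds 1 log2 ratio per probe and array; the submitters' processing notes name limma, with no version. Its direction, deficient over partner, was settled by correlation with the scanner ratios (r 0.718 to 0.948), and its column medians run from -0.0106 to 0.0071.

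From the intensities, mean signal was background-corrected with normexp (offset 50), leaving out spots whose local background exceeded 3 times the channel median (up to 16 per array on 9 arrays, 0 of them spots of the members), then normalized by loess within and Aquantile between arrays (limma 3.58.1 in R 4.3.3). Control spots and outlier spots had weight 0 in loess. Probes stayed if, for some kind of RNA, a share of 0.5 of its channels was well above background (36964 probes), and the brightest probe stood for a gene (24966 genes tested, 2 left out for a missing value). Names came from RefSeq by accession (14929), symbol (2546) or synonym (1272), or stayed as in the files (6219).

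Levels per line and state came from a separate-channel fit with a dye term (intra-spot correlation 0.891). Lines were compared with limma, clones in 2 states as pairs, and deficient clones with each reference by a fit of array log ratios over all 18 arrays with no block for the clone, and p-values were adjusted by Benjamini-Hochberg across the whole gene table (threshold 0.05). Each reference was 1 RNA in 1 dye, so its spread is technical. The labels do not say that lines of a group were isolated independently, so p-values between lines speak for these lines only. The levels behind them share arrays and 1 fit, so they are not independent values. The p-values against the references take their spread from all 18 arrays.

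On simulated data with 5000 genes, these line values called 11.8% of unchanged genes between deficient and control iPSC and 8.86% of genes between the states of a clone, against 0.125% between differentiating and control iPSC. Plain channel means called 0.25%, 0% and 0%, which is why their p-values stand beside the results. The simulated noise was independent between arrays, with no slide or scan-day effect. The simulation therefore cannot show how either kind of p-value behaves where such effects are present. On each slide the clone and its control partners deviated together (r 0.74, 0.76 and 0.645), so slide was also used as a block. Members, gene lists and tests were chosen with earlier results of these data known. Named list genes were, per list, up to 2 called in each direction with the largest difference. Likeness was ranked by Pearson's r over 12 line-and-state values. Some genes that these rules name are not reported here.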

Additional observations from a re-analysis of the deposited data

Results flagged for a closer look

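Fgf15 and Fgf17 differed between the 2 states of the clones. In the main fit neither state passed against the control lines. Adjusted p from limma was 0.296 (deficient) and 0.276 (differentiating) for Fgf15, and 0.544 and 0.063 for Fgf17. The difference between the states, tested as differentiating minus deficient over 3 clone pairs, was -0.683 for Fgf15 (limma adjusted p = 0.00525) and -0.589 for Fgf17 (limma adjusted p = 0.00465), lower in 3 of 3 clones for both genes. Between the states 54.3% of all genes passed, 19% as lower. With channel means the limma adjusted p was 0.0127 for Fgf15 and 0.0116 for Fgf17. The deficient state was read on one scan day and the differentiating state on the other, so state and scan day cannot be told apart.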

How the results depend on the processing

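Over single genes and settings, 321 values kept their direction and side of the threshold, 26 passed it newly, 13 lost it and 5 turned sign. The 5 were Fgf17 against V6.5 ESC without a dye term (0.014) and on the 3 arrays of that reference alone (0.014), Fgf8 against V6.5 ESC by its second probe (-0.022), and, between deficient and control iPSC, Fgf5 without clone 8 (0.15, with -1.31 to 0.15 over the lines left out) and Otx2 without clone B2 (-0.012, with -0.012 to 0.62). Fgf8 passed between deficient and control iPSC under 17 of 17 alternatives. Genes called there numbered 7647 with channel means and 7465 with slide as a random block, against 12024, and 9588 to 13896 with 1 line left out. With no between-array normalization the all-gene median was 0.08, against -0.08, and 58.2% of called genes were higher, against 32.1%; between the states 40% were higher, against 65%. Members called numbered 1 to 2 with a line left out, 2 being without clone 8, where 11342 genes were called.

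Between differentiating clones and control iPSC, genes called numbered 1145, against 4590 by the authors' table (which leaves out the spread between control lines), 447 with channel means, 1746 with slide as a replicate block and 2443 without the array of control line 5 on slide 3. With a line left out they ran from 0 to 3627. limma called 0 without control line 3 or 4 or clone A6 or B2, where 3802 to 4293 genes had an unadjusted p under 0.05, and 3627 without line 6. Members called were 2 with Agilent processed signals (1106 genes), 4 by the authors' table and 0 with channel means. They were 0 with the mean of all probes (1177 genes) and 2 with high-background spots kept (1182 genes). The replicate block (paired by slide) gave 3, and the same values unblocked gave 2 (1252 genes). Leaving out a line gave 0 to 4: 0 without control line 3, 4 or 5 or any clone, and 4 without line 6. Without line 5 or clone 8, 1589 and 1396 genes were called.

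Between the states, genes called were 8104 with channel means and 3238 to 15042 with a clone left out (3238 without A6, 7377 without B2), against 13564. Members called were 4 with Agilent processed signals (12844 genes), 4 without normalization between arrays (14519 genes) and 4 with high-background spots kept (13156 genes). With a clone left out 2 to 4 members were called. The fit without pairing called 2 members and 13219 genes. Against V6.5 ESC, keeping high-background spots gave 1350 genes (65.5% higher, against 40.6%) and 0 members, and leaving out a clone gave 1733 to 3102 genes and 1 to 3 members, against 3566 and 2. The 3 arrays of that reference alone, with no dye term, gave 5393 genes. Against MEF a clone left out gave 13203 to 13492 genes and 3 members. The cause of these changes was not tested. A left-out line also leaves fewer samples, and the number of genes called rose in some such settings and fell in others. Keeping high-background spots, channel means, unblocked slide values, the arrays of a reference alone and leaving out the odd array were chosen after seeing the data. Few lines and 1 RNA per reference limit what can be shown, and dim probes in MEF lie near background.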
